A study of Mus musculus with 8 samples.

Results

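Microglia detect antibody-coated material through Fc receptors, and 9 genes of this system were followed in the RNA of cultured mouse microglia after exposure to lipopolysaccharide (LPS), a component of the outer membrane of Gram-negative bacteria. They were the 4 mouse Fcγ receptor genes Fcgr1, Fcgr2b, Fcgr3 and Fcgr4, the neonatal Fc receptor gene Fcgrt, the adaptor genes Fcer1g, Tyrobp and Hcst, and the kinase gene Syk. The genes were chosen by name, with earlier results of these data known. They were found by Ensembl identifier, through GENCODE vM21 symbols, among the 52636 genes of the count table, and all 9 were present. Primary microglia of WT C57BL/6 mice (C57BL/6N pups in the study's methods) had been shaken off mixed glial cultures of neonatal brains and kept in serum with the growth factor CSF-1. They received 5 µg/ml LPS or vehicle for 24 h, and 4 libraries were sequenced in each group. Both groups share the serum, the CSF-1 and the time away from the brain, and the 8 libraries are labelled only as biological replicates, so p-values measure the spread between these libraries.

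Activating Fcγ receptors bind the constant part of IgG and have little signalling sequence of their own in the cytosol. They use the adaptor encoded by Fcer1g, which carries an immunoreceptor tyrosine-based activation motif (ITAM). Kinases of the Src family phosphorylate the paired tyrosines of the ITAM, Syk docks on them, and uptake of the bound particle and cytokine release can follow. Tyrobp (DAP12) carries an ITAM too and serves receptors such as TREM2, whereas Hcst (DAP10) carries a motif that recruits PI 3-kinase. FcγRIIB, the product of Fcgr2b, has an inhibitory motif (ITIM) that recruits phosphatases. The product of Fcgrt, FcRn, lies inside cells and spares IgG and albumin from breakdown.

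These signalling proteins are told apart by short stretches of their coding sequence, given here from the reference (GENCODE vM21 transcripts, GRCm38), 5′ to 3′, with the tyrosine codons in capitals. The ITAM of Fcer1g covers codons 65 to 79 of 86, in exons 4 and 5 of 5 (chr1:171229889-171230072, minus strand, intron included). That of Tyrobp covers codons 92 to 106 of 114, also in exons 4 and 5 of 5 (chr7:30415670-30417382, plus strand, intron included). The PI 3-kinase motif of Hcst lies at codons 72 to 75 of 79, in exon 4 of 4 (chr7:30417821-30417832, minus strand), and the ITIM of Fcgr2b at codons 317 to 322 of 340, in exon 8 of 8 (chr1:170961071-170961088, minus strand). An ITAM, searched as paired tyrosine codons each followed by a leucine or isoleucine codon at the usual spacing, occurred 1 time in Fcer1g, 1 time in Tyrobp and not in the coding sequence of the other 7 genes.
Fcer1g: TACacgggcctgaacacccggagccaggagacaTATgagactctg
Tyrobp: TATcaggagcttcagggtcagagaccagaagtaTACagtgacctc
Hcst: TACatcaacatg
Fcgr2b: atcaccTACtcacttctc

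Of the 9 genes, 4 lie within 275749 bases of chromosome 1 (GRCm38), in the order Fcgr2b (ENSMUSG00000026656, chr1:170958617-170976547, minus strand), Fcgr4 (ENSMUSG00000059089, chr1:171018920-171029761, plus), Fcgr3 (ENSMUSG00000059498, chr1:171051174-171064935, minus) and Fcer1g (ENSMUSG00000058715, chr1:171229572-171234365, minus). Fcgr1 (ENSMUSG00000015947) lies apart at chr3:96282909-96293969 on the minus strand. Tyrobp (ENSMUSG00000030579, chr7:30413760-30417585, plus) and Hcst (ENSMUSG00000064109, chr7:30417712-30419854, minus) face each other tail to tail with 126 bases between them. Fcgrt (ENSMUSG00000003420) is at chr7:45092990-45103851 on the minus strand and Syk (ENSMUSG00000021457) at chr13:52583173-52648792 on the plus strand. The coding sequences of Fcgr2b and Fcgr3 were identical at 86.7% of aligned bases, against 64.1% to 68.6% in the other pairs of Fcγ receptor genes, and those of Fcer1g and Tyrobp at 72.6%. In windows of 50 bases, the read length named in the labels, 166 of the 1298 windows of the main Fcgr3 transcript (12.8%) also occurred in Fcgr2b. These made up 4.75% of the Fcgr2b windows, and a further 7.73% of Fcgr2b windows occurred in genes outside the family. Reads from such windows cannot be assigned uniquely, so the counts of Fcgr2b and Fcgr3 can miss reads. The other 7 genes shared no window with another gene. An antisense gene, Gm38204, overlaps 2.68% of the exonic bases of Fcgr2b, and no other of the 9 genes overlaps exons of a gene on the other strand.

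The libraries held 20071921 to 30604447 counts, and at least 120 counts fell on each of the 9 genes in the library where it was highest. Levels are given in CPM, counts scaled to the size of the library after TMM correction, which allows for a few abundant genes taking up the reads. Changes are log2 fold changes of LPS against vehicle from the quasi-likelihood test of edgeR over 13847 genes, two-sided, with Benjamini-Hochberg adjusted p-values and a threshold of 0.05. This contrast moved a large part of the transcriptome: 64.1% of tested genes passed, 30.3% higher and 33.8% lower, the median log2 fold change was −0.11, and the CPM of the 4 LPS and the 4 vehicle libraries did not overlap for 60.2%. The result for all genes depended on the scaling, since TMM factors were 1.21 to 1.32 in vehicle and 0.701 to 0.833 in LPS libraries. Scaling by library totals alone, added after seeing the data, moved the median of all genes by −0.68 on the log2 scale, and the share of calls that were higher from 47.2% to 19.0%. Of 12 microglial markers, 10 fell, with a median log2 fold change of −2.04, and their summed level went from 13410 to 17020 CPM in vehicle to 5437 to 6088 CPM after LPS. Aif1 and Ctss were the markers that did not pass. In bulk RNA, fewer cells of a type and less RNA per cell cannot be told apart.

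LPS-treated microglia had more RNA of both activating and inhibitory Fcγ receptors, of their adaptor Fcer1g and of Syk, and less of Tyrobp, Hcst and Fcgrt. All 9 genes passed the filter on low counts. Of these, 5 were higher (Fcgr1, Fcgr2b, Fcgr4, Fcer1g and Syk), 3 were lower (Tyrobp, Hcst and Fcgrt), and Fcgr3 did not pass in this unpaired fit, though it did when the replicate number was a block (log2 fold change 0.50, edgeR adjusted p = 0.0195). The 8 of 9 that passed stand beside 64.1% of all tested genes. For the same 8 genes the LPS and vehicle libraries did not overlap, beside 60.2% of all tested genes. The median log2 fold change of the 9 was 1.63, beside −0.11 over all tested genes. Since the 9 genes were chosen with earlier results of these data known, these comparisons are a description. With library totals alone the same 8 genes passed, 5 higher and 3 lower, beside 1988 higher and 8457 lower of all 13847 tested genes. Their changes shifted downward, to 0.95 for Fcer1g and −1.73 for Tyrobp on the log2 scale.

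**Figure D1:**
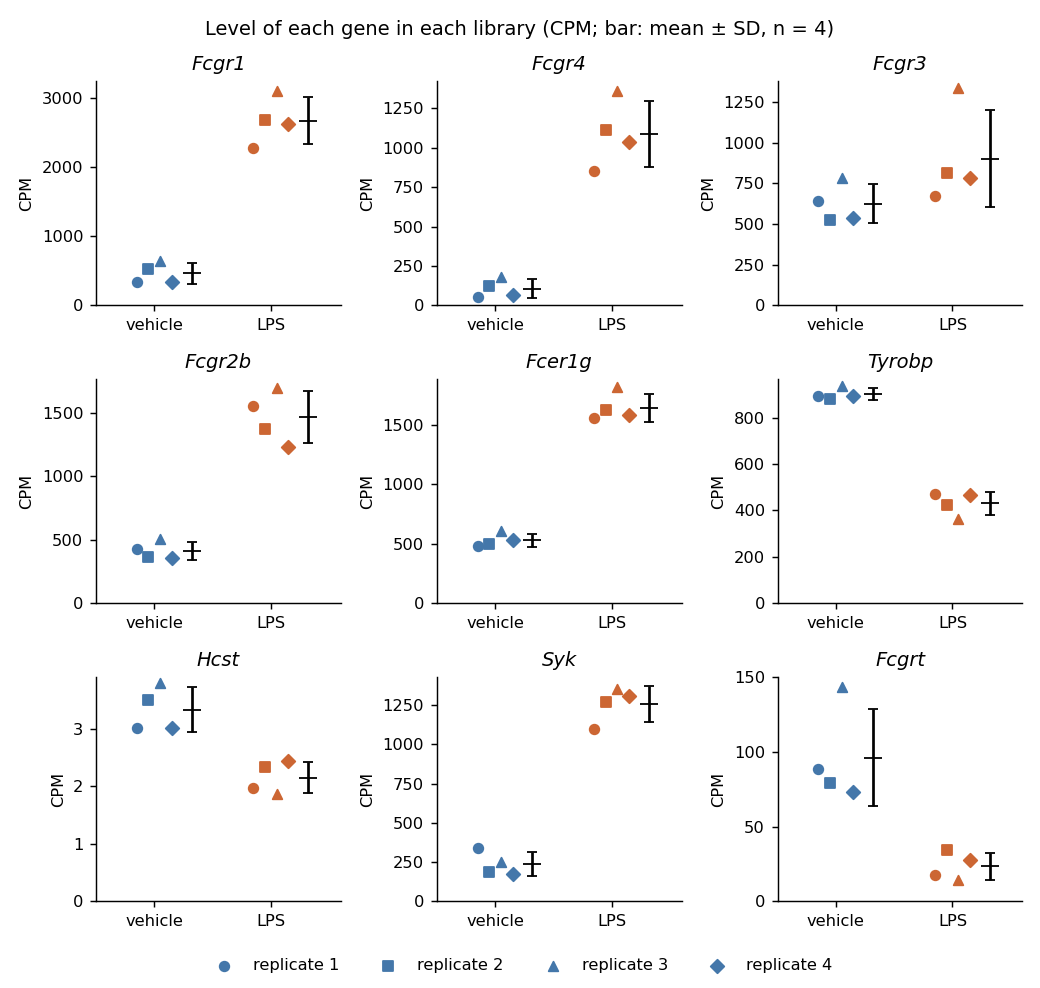
Level of each of the 9 genes in each library, in CPM on linear axes that start at 0, with vehicle in blue and LPS in orange. Marker shapes are replicate numbers, and the bar beside each group is the mean with the SD (n = 4). The 4 LPS points lie clear of the 4 vehicle points in every panel except that of Fcgr3, where LPS replicates 1 (669 CPM) and 4 (782 CPM) fall between vehicle replicates 1 (643 CPM) and 3 (785 CPM).

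Fcgr1 encodes FcγRI (CD64), the high-affinity receptor for IgG. It was at 338, 526, 647 and 344 CPM in vehicle replicates 1 to 4 and at 2281, 2681, 3112 and 2632 CPM in LPS replicates 1 to 4. Every LPS library thus held more than 3 times the level of the highest vehicle library. The mean rose 5.77-fold, from 464 ± 150 to 2677 ± 341 CPM (SD, n = 4), a log2 fold change of 2.53 with an SE of 0.24 (edgeR adjusted p = 1.52e-05).

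Fcgr4 encodes FcγRIV, an activating receptor with intermediate affinity for some IgG subclasses. Its vehicle levels were 53.6, 125, 181 and 65.2 CPM, and its LPS levels 850, 1110, 1358 and 1035 CPM. The lowest LPS library stood far above the highest vehicle library. Fcgr4 had the largest rise of the 9 genes, 10.3-fold, with a log2 fold change of 3.36 and an SE of 0.39 (edgeR adjusted p = 5.07e-05), and 3.46% of all tested genes had a higher log2 fold change. It also varied most between vehicle cultures, with a coefficient of variation of 55.5% and a 3.38-fold range, against 19.3% after LPS. Fcgr1 and Fcgr4 shared their extremes with Fcer1g, since all of these were lowest in replicate 1 and highest in replicate 3 of either group.

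Fcgr3 encodes FcγRIII (CD16), an activating receptor of low affinity. Its levels were 643, 526, 785 and 540 CPM in vehicle and 669, 814, 1336 and 782 CPM after LPS. LPS replicate 3 was high and LPS replicates 1 and 4 lay within the vehicle range. The log2 fold change was 0.53 with an SE of 0.23 (edgeR adjusted p = 0.0675), and 27.2% of tested genes had a higher value. The call depended on the model. With the replicate number as a block, which pairs same-numbered libraries, the log2 fold change was 0.50 (edgeR adjusted p = 0.0195), and with DESeq2 it was 0.58 (adjusted p = 0.0383). It was also called without LPS replicate 1 (0.66, edgeR adjusted p = 0.0341) or without vehicle replicate 3 (0.71, edgeR adjusted p = 0.0215). With library totals alone its direction turned, to −0.17 (edgeR adjusted p = 0.414), so the direction for Fcgr3 rests on the scaling.

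Fcgr2b, the gene of the inhibitory receptor, was at 428, 364, 507 and 356 CPM in vehicle replicates 1 to 4. In LPS replicates 1 to 4 it was at 1551, 1370, 1696 and 1232 CPM. Each LPS library was higher than each vehicle library, and the replicates kept the same order in both groups, 3 highest and then 1, 2 and 4. The rise was 3.54-fold, a log2 fold change of 1.82 with an SE of 0.17 (edgeR adjusted p = 1.22e-05). Within replicate numbers the differences were 1.86, 1.91, 1.74 and 1.79 on the log2 scale.

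**Figure D2:**
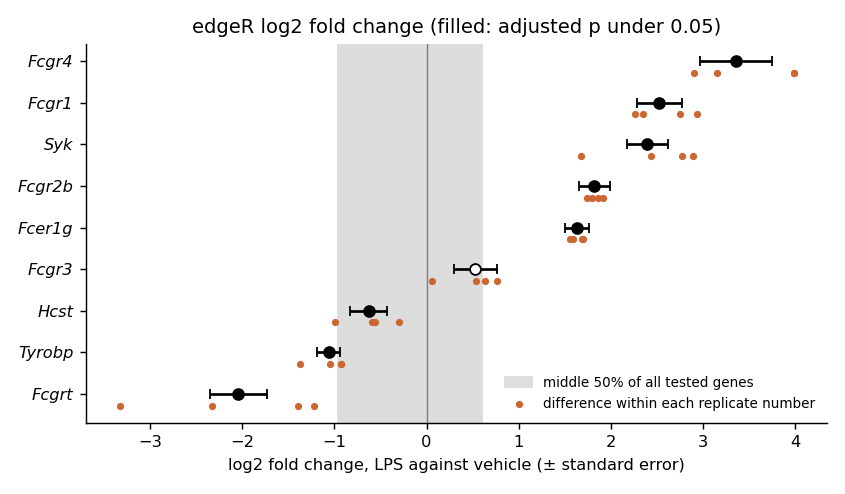
Log2 fold change of each gene, LPS against vehicle, from edgeR, with the standard error as bars (filled circles passed an adjusted p of 0.05, the open circle did not). Small orange points are the log2 differences within each replicate number, and the grey band is the middle 50% of all tested genes, from −0.96 to 0.61. Fcgr4 lies highest at 3.36 and Fcgrt lowest at −2.04, and Hcst at −0.63 and Fcgr3 at 0.53 lie inside the band.

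The make-up of the Fcγ receptor RNA differed between the groups. Levels per length (CPM per kb of exon, over the union of the exons) allow the genes to be added. The summed level of the 4 Fcγ receptor genes was 617, 668, 934 and 557 CPM per kb in vehicle and 2211, 2625, 3345 and 2503 CPM per kb after LPS. Fcgr3 made up 52.4 ± 6.69% of this sum in vehicle and 19.1 ± 2.63% after LPS (SD, n = 4). The share of Fcgr1 went from 25.6 ± 3.96% to 39.0 ± 2.08%, and that of Fcgr4 from 11.6 ± 4.18% to 32.4 ± 1.31%. None of these 3 shares overlapped between the groups. The share of Fcgr2b was 10.5 ± 1.27% and 9.60 ± 1.69%, with overlapping libraries, so that the activating genes together were 8.68 ± 1.15 times Fcgr2b in vehicle and 9.63 ± 1.61 times after LPS. These shares depend on the length assumed. With the length of the principal transcript, added after seeing the data, the Fcgr2b share was 14.0% in both groups and the ratio 6.20 and 6.26.

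**Figure D3:**
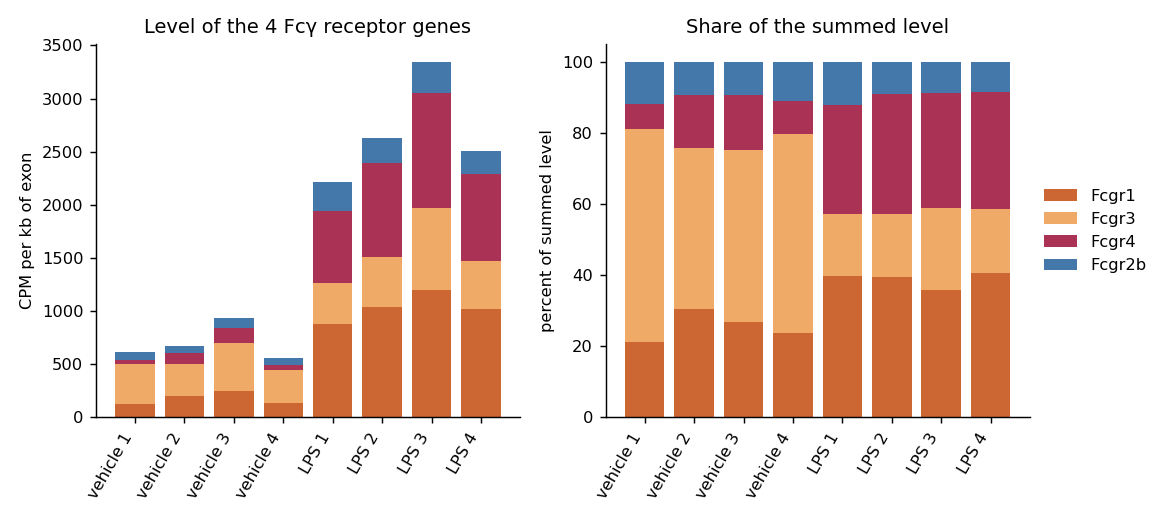
Levels of the 4 Fcγ receptor genes per kb of exon, stacked by library on the left in CPM per kb, and as percent of their sum on the right. The sum lies between 557 and 934 in vehicle and between 2211 and 3345 after LPS. Fcgr3 takes 45.35% to 59.97% of it in vehicle and 17.4% to 23.0% after LPS, and Fcgr2b between 8.50% and 12.1% in all 8 libraries.

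A ratio of genes within a library does not depend on the scaling of libraries. The log2 ratio of Fcgr4 to Fcgr2b was −0.79, 0.66, 0.72 and −0.24 in vehicle and 1.34, 1.90, 1.88 and 1.95 after LPS. The groups did not overlap and the means differed by 1.68. The log2 ratio of Fcgr3 to Fcgr2b was 2.33, 2.27, 2.37 and 2.34 in vehicle and 0.53, 0.99, 1.39 and 1.08 after LPS. It fell by 1.33, from a value that was nearly constant between vehicle cultures (SD 0.041). Both differences, like those of the 2 adaptor ratios below, had p = 0.0286 in a two-sided exact permutation test over the 70 divisions of the 8 libraries, the smallest p that 4 against 4 can give, and 0.0286 after adjustment over the 4 ratios. With the replicate block, exact sign flips within the 4 numbers gave p = 0.125, the smallest they can give. The ratios were chosen with earlier results of these data known, so these p-values are given as a description. How often ratios of other genes separate in this contrast was not tested.

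The adaptor genes moved in opposite directions. Fcer1g was at 479, 501, 606 and 535 CPM in vehicle and at 1557, 1619, 1816 and 1580 CPM after LPS. These were tight groups, with coefficients of variation of 10.4% and 7.21%. Fcer1g rose 3.10-fold, a log2 fold change of 1.63 with an SE of 0.13 (edgeR adjusted p = 5.37e-06).

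Tyrobp stood at 891, 881, 937 and 892 CPM in vehicle, the narrowest spread of the 9 genes with a coefficient of variation of 2.78%. After LPS it stood at 469, 424, 363 and 469 CPM. The groups were far apart, and the LPS library with the least Tyrobp, replicate 3, was the one with the most Fcer1g. Tyrobp fell 2.09-fold, a log2 fold change of −1.06 with an SE of 0.12 (edgeR adjusted p = 5.11e-05). The fall of 10 of 12 microglial markers moved with it, and their part in the result was not tested.

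Hcst, whose gene ends 126 bases from that of Tyrobp, had the lowest level of the 9 genes. Per kb of exon, 44.4% of all tested genes stood higher in vehicle and 52.4% after LPS. Hcst was at 3.01, 3.49, 3.81 and 3.02 CPM in vehicle and at 1.98, 2.34, 1.87 and 2.43 CPM after LPS. It had at most 120 counts in a library. The groups lay close together without overlap. The log2 fold change was −0.63 with an SE of 0.20 (edgeR adjusted p = 0.0209). This call did not hold without vehicle replicate 2 (−0.58, edgeR adjusted p = 0.0691), without vehicle replicate 3 (−0.50, edgeR adjusted p = 0.0789) or with no filter on low counts (−0.66, edgeR adjusted p = 0.05001).

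Per kb of exon, Fcer1g was 0.411, 0.434, 0.493 and 0.457 times Tyrobp in vehicle. After LPS it was 2.53, 2.91, 3.82 and 2.57 times Tyrobp. The order of the genes that encode the ITAMs printed above thus differed between the groups. Tyrobp was the higher in every vehicle library and Fcer1g in every LPS library. Their log2 ratio differed by 2.70 between the groups. Their sum moved less, from 1956 ± 98.5 to 2526 ± 64.6 CPM per kb (SD, n = 4). Against the summed level of the activating receptor genes, Fcer1g was at 1.00 ± 0.173 in vehicle and 0.791 ± 0.0968 after LPS, with overlapping libraries. The log2 ratio of Hcst to Tyrobp differed by 0.44 between the groups, without overlap, as Hcst fell less than Tyrobp.

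**Figure D4:**
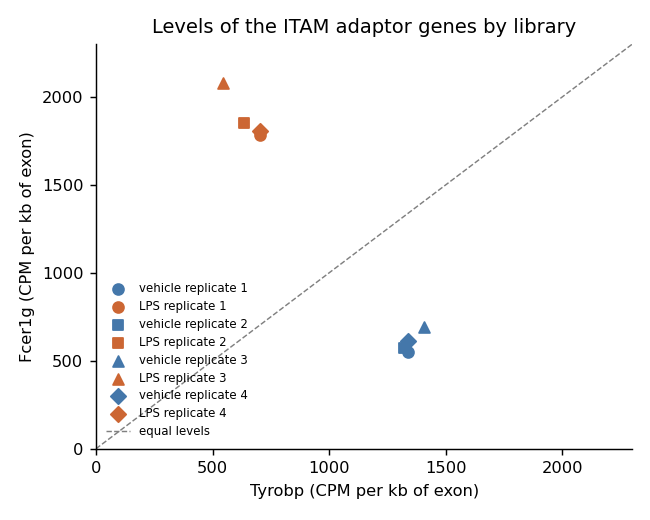
Fcer1g against Tyrobp in each library, both in CPM per kb of exon, with vehicle in blue, LPS in orange and marker shapes for replicate numbers. The dashed line marks equal levels. The 4 vehicle libraries lie below it, with ratios of 0.411 to 0.493, and the 4 LPS libraries above it, with ratios of 2.53 to 3.82.

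Syk, the kinase that docks on phosphorylated ITAMs, was at 342, 185, 249 and 176 CPM in vehicle and at 1095, 1268, 1352 and 1307 CPM after LPS. Vehicle replicate 1 held the most Syk of the vehicle libraries, whereas each of the other 8 genes was highest in vehicle replicate 3. LPS replicate 1 held the least of the LPS libraries. Syk rose 5.27-fold, a log2 fold change of 2.40 with an SE of 0.22 (edgeR adjusted p = 1.28e-05), and the difference within replicate 1 was 1.68 against 2.44 to 2.89 within the other numbers.

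Of 12 further kinase genes of the Src, Syk and Tec families, 9 were tested, of which 4 rose and 2 fell, with a median log2 fold change of 0.59. These 6 of 9 stand beside 64.1% of all tested genes that passed. Lyn, a Src family kinase that phosphorylates ITAMs in myeloid cells, rose by 2.36 on the log2 scale with an SE of 0.15, from 169 to 249 CPM to 978 to 1141 CPM (edgeR adjusted p = 1.49e-06). Src was lower in level and rose by 1.49 (edgeR adjusted p = 0.00749), a call lost with library totals alone (0.84, edgeR adjusted p = 0.0791). Fyn fell by 1.14 and Yes1 by 0.67. With library totals alone 2 kinase genes were higher and 3 lower, beside 1988 higher and 8457 lower of all 13847 tested genes.

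Fcgrt, the gene of FcRn, fell. It was at 88.6, 79.5, 144 and 73.1 CPM in vehicle and at 17.5, 34.1, 14.2 and 27.7 CPM after LPS. Vehicle replicate 3 was the highest of the vehicle libraries and LPS replicate 3 the lowest of the LPS libraries, so the log2 differences within numbers ran from −3.33 in replicate 3 to −1.22 in replicate 2. The mean fell 4.11-fold, a log2 fold change of −2.04 with an SE of 0.31 (edgeR adjusted p = 0.000293), and 9.11% of tested genes had a lower value.

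FcRn works as a complex with β2-microglobulin, and the gene of that subunit moved the other way. B2m was at 2395 to 3400 CPM in vehicle and 6358 to 10040 CPM after LPS, a log2 fold change of 1.53 (edgeR adjusted p = 0.000111). B2m also serves the class I histocompatibility proteins. It belongs to a list of 13 further Fc receptor genes and partners, of which 6 were tested, 3 rose and 2 fell (30.3% and 33.8% over all tested genes), with a median log2 fold change of 1.14. Trim21, a cytosolic receptor for antibody carried into cells on a pathogen, rose from 44.0 to 76.3 CPM to 193 to 330 CPM, by 2.09 on the log2 scale (edgeR adjusted p = 3.04e-05). Fcrlb, an Fc receptor-like gene, rose from at most 0.49 CPM to 5.78 to 10.7 CPM. Fcrls, an Fc receptor-like gene used as a marker of microglia, fell by 3.86 on the log2 scale, from 461 to 1192 CPM to 34.9 to 75.8 CPM (edgeR adjusted p = 8.65e-06), and Fcrl1 fell by 2.39. The IgE receptor subunit genes Fcer1a and Ms4a2, which pair with Fcer1g in mast cells, had at most 1 count in any library, as had Fcer2a, Fcamr and Pigr.

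The receptors that borrow Fcer1g, Tyrobp or Hcst were divided. Of 17 such genes 12 were tested, of which 7 rose and 2 fell (30.3% and 33.8% over all tested genes), with a median log2 fold change of 1.33. Trem2, the lipid-binding receptor that signals through Tyrobp, was at 505, 582, 543 and 566 CPM in vehicle and at 22.1, 7.95, 10.2 and 13.5 CPM after LPS. It fell by 5.36 on the log2 scale with an SE of 0.32 (edgeR adjusted p = 8.73e-07), more than the fall of its adaptor. Cd300lb, another partner of Tyrobp, was at 158 to 189 CPM in vehicle and 3.14 to 4.14 CPM after LPS, and fell by 5.62 on the log2 scale. Trem1 and Trem3, activating relatives that use the same adaptor, went the other way. Trem1 rose from 0.142 to 0.455 CPM to 116 to 228 CPM, and Trem3 from at most 0.175 CPM to 21.1 to 35.6 CPM. Gp6, the platelet collagen receptor that pairs with Fcer1g, had at most 1 count in a vehicle library, so no fold is given. It was at 42.5 CPM in LPS replicate 1 and at 3.32 to 5.74 CPM in the others. The natural killer receptor gene Ncr1 was at 0 in all 8 libraries and Siglech had at most 2 counts. The count for this list was 4 higher with at least 10 counts in every library. With library totals alone 6 were higher and 4 lower, beside 1988 higher and 8457 lower of all 13847 tested genes.

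Of 24 genes of scaffolds and effectors downstream of Syk, 23 were tested, of which 11 rose and 6 fell, with a median log2 fold change of 0.26, beside 30.3% higher and 33.8% lower over all tested genes. Rac2, a small GTPase of phagocytosis and of the NADPH oxidase, had the largest rise, from 165.2 to 255.9 CPM to 1401 to 1822 CPM, 3.03 on the log2 scale with an SE of 0.19 (edgeR adjusted p = 1.21e-06). Lcp2 (SLP-76), an adaptor that Syk phosphorylates, rose from 85.4 to 103 CPM to 536 to 606 CPM, and Malt1, the protease of the CARD9, BCL10 and MALT1 complex, by 2.14 on the log2 scale. Plcg1 fell by 1.14, the exchange factor gene Vav3 by 0.79 and the transcription factor gene Nfatc1 by 0.72. With library totals alone 5 genes were higher and 14 lower, beside 1988 higher and 8457 lower of all 13847 tested genes.

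Phosphatase, adaptor and ubiquitin ligase genes of the same pathway were mostly higher with TMM scaling, fewer with library totals alone. They were listed as inhibitory, and whether each of them inhibits the pathway in these cells was not tested. All 16 listed phosphatase, adaptor and ubiquitin ligase genes were tested, of which 11 rose and Ptpn22 fell, with a median log2 fold change of 0.57, beside 30.3% higher and 33.8% lower over all tested genes. Sla, an adaptor that lowers the amount of antigen receptors at the surface, rose by 2.77 on the log2 scale (edgeR adjusted p = 4.91e-06), from 27.8 to 46.9 CPM to 166 to 276 CPM. Ubash3b, a phosphatase that acts on Syk, rose by 2.20, from 46.0 to 52.8 CPM to 179 to 266 CPM. Ptprj (CD148) rose by 1.09. Ptpn22, a phosphatase that acts on Src family kinases, fell by 1.59, from 7.16 to 10.9 CPM to 1.68 to 5.69 CPM (edgeR adjusted p = 0.00426). With library totals alone 4 of the 16 were higher and 5 lower, beside 1988 higher and 8457 lower of all 13847 tested genes. When a log2 fold change of at least 1 was also required with TMM, 4 were higher, beside 2224 of all tested genes.

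Per kb of exon, the order of the 9 genes in vehicle was Tyrobp (1350 CPM per kb), Fcer1g (607), Fcgr3 (359), Fcgr1 (179), Fcgr4 (84.4), Fcgr2b (71.4), Fcgrt (45.8), Syk (25.4) and Hcst (4.62). Among neighbours in this order, the libraries of Fcgr1 and Fcgr4, Fcgr4 and Fcgr2b, Fcgr2b and Fcgrt, and Fcgrt and Syk overlapped. Fcgr4 was above Fcgr2b in 2 of 4 libraries only. After LPS the order was Fcer1g (1880 CPM per kb), Fcgr1 (1034), Fcgr4 (866), Tyrobp (646), Fcgr3 (519), Fcgr2b (253), Syk (134), Fcgrt (11.1) and Hcst (2.98). Here Fcgr1 and Fcgr4, Fcgr4 and Tyrobp, and Tyrobp and Fcgr3 overlapped. Tyrobp thus went from the first to the fourth place, and Fcgr4 from the fifth to the third. With the length of the principal transcript, Fcgr2b (117 CPM per kb) stood above Fcgr4 (84.4 CPM per kb) in vehicle.

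The genes whose log2 CPM followed an adaptor most closely over the 8 libraries were found among 8382 genes. Since all 8 libraries share the contrast, such correlations mostly compare the groups and are given as a description. For Fcer1g they were Rnf145 (Pearson r = 0.9987), Plek (0.9983) and Carhsp1 (0.9980), for Tyrobp Ctsa (0.9987), Wdr41 (0.9985) and Zc3h7b (0.9978), and for Hcst Bri3 (0.9944), Rptor (0.9873) and Nmral1 (0.9854).

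Several of these genes are also used by other blood cells, so markers of the cells that a culture could hold were read in the same libraries. All 8 markers of natural killer and T cells had at most 3 counts in every library, 5 of them 0. Of 7 mast cell and basophil markers, Fcer1a, Mcpt4 and Tpsb2 were at 0 and Cpa3 and Ms4a2 at no more than 1 count. Kit was at 0.761 to 5.04 CPM in vehicle and 0.933 to 2.93 CPM after LPS and did not pass (edgeR adjusted p = 0.276). The summed level of this list rose from 1.94 to 5.11 CPM to 33.2 to 45.4 CPM, through Hdc, the histamine-forming enzyme gene, at 31.9 to 42.5 CPM after LPS. Of 6 neutrophil markers 5 had at most 3 counts in every library. The sixth, Camp, was too low to be tested and stood at 0 to 0.105 CPM in vehicle and 0.325 to 2.99 CPM after LPS, without overlap, and the summed level of the list was 0.0317 to 0.140 CPM in vehicle and 0.325 to 2.99 CPM after LPS. Its part in the results was not tested. The 5 B cell markers summed to at most 1.62 CPM, with Ms4a1 higher after LPS as the only tested one. The summed level of endothelial and fibroblast markers rose from 32.5 to 73.6 CPM to 182 to 261 CPM. Most of it was Flt1 (mean 48.6 CPM in vehicle and 165 CPM after LPS) and, after LPS, Pecam1 (mean 52.3 CPM). All 4 tested genes of the 8 were higher (Pecam1, Cdh5, Flt1 and Dcn), beside 30.3% of all tested genes. The collagen genes Col1a1, Col1a2 and Col3a1 were too low to be tested. Their means were lower after LPS, at 0.0954, 0.0272 and 0.0266 CPM against 0.530, 0.392 and 0.286 CPM in vehicle, with overlapping libraries. Cldn5 was at 0. The part of this list in the results was not tested. The other summed levels were 110 to 156 CPM for astrocyte markers in vehicle and 41.5 to 122 CPM after LPS, 24.9 to 123 and 62.9 to 136 CPM for oligodendrocyte precursors, 150 to 205 and 188 to 238 CPM for oligodendrocytes, and 3.52 to 10.9 and 2.47 to 7.66 CPM for neurons. Of the tested genes, astrocyte markers had 1 higher and 3 lower of 7 and precursor markers 1 and 1 of 6. Oligodendrocyte markers had 1 and 1 of 4, and neuron markers 3 lower of 5. These stand beside 30.3% higher and 33.8% lower over all tested genes. In the astrocyte list, S1pr1 made up most of the vehicle sum, at 102 to 122.5 CPM, and was at 2.57 to 5.46 CPM after LPS. Gja1 went the other way, from 0.639 to 1.07 CPM to 28.9 to 98.15 CPM.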

How the data were processed

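RNA of primary mouse microglia was sequenced as single-end reads, in 4 LPS and 4 vehicle libraries. The authors deposited raw counts per Ensembl gene, which HTSeqGenie had made from uniquely aligned reads after GSNAP alignment to GRCm38. The kit is stranded and the sequencer a NovaSeq per the labels, whereas the methods give a TruSeq RNA kit without that word, and a HiSeq. Whether counting used the strand, the annotation release and the content of the vehicle are not given in the sources used here. No batch is named, so a batch that follows the groups could not be looked for.

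The quasi-likelihood test of edgeR 4.0.16 (R 4.3.3) was run on the counts with TMM scaling. Low genes were removed by filterByExpr (at least 10 counts in enough libraries, 15 in total), which left 13847, and p-values were adjusted by Benjamini-Hochberg over these. The fit was tested on simulated data with known changes in a small part of the genes, which cannot check the dependence on scaling. Totals of 20071921 to 30604447 counts set the precision of low genes, and up to 3 counts in every library was taken as the floor, which covers counting error only. Identifiers without a symbol held 0.00512% of the counts. Ratios were compared by exact permutation in scipy 1.17.1, and coding sequences were read with Biopython 1.88.

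The 9 genes, the lists and the tests were chosen with earlier results of these data known. All 9 are named. Each list adds its 3 strongest rises and 3 strongest falls that passed an adjusted p of 0.05, had non-overlapping groups and averaged 1 or more in log2 CPM. Some genes of the lists enter the counts and medians but are not reported here by name. For the 3 adaptors the 3 best correlated genes averaging 3 or more in log2 CPM were added. Alternatives were DESeq2 1.42.0, its size factors in edgeR, upper quartile scaling, other filters, a stricter adjusted p of 0.01, a log2 fold change of at least 1, a replicate block and leaving out each library. Library totals alone and the length of the principal transcript were added after seeing the data.

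To see whether replicate numbers pair the libraries, each library's deviation from its group mean was correlated between the groups over 8010 genes. The same number gave r of 0.373 (replicate 1), 0.196 (replicate 2), 0.171 (replicate 3) and 0.108 (replicate 4). All exceed 0.1, the limit set for reading the numbers as pairs. The main fits are unpaired, as the study names no block, and the replicate block is an alternative, given beside a result where it changes the call. Where the pairing comes from is not stated, and replicates 2 and 4 reached 0.146 with another number, for replicate 4 above its own value.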

Additional observations from a re-analysis of the deposited data

Results flagged for a closer look

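In 76 sets of 4 libraries (levels of the named genes and ratios, by group), 5 had a library far from the other 3 by Dixon's criterion, of which chance gives about 1 in 20. Of these, 4 concerned LPS replicate 1. In that library Gp6 was at 42.49 CPM against 3.32 to 5.74 CPM in the other LPS libraries. Lyn was low there, at 977.6 CPM against 1116 to 1141 CPM, as was Sla, at 166.2 CPM against 259 to 276 CPM. The log2 ratio of Fcgr4 to Fcgr2b was 1.337 in LPS replicate 1 against 1.88 to 1.95 in the others. The remaining set was Ptpn22, at 5.69 CPM in LPS replicate 3 against 1.68 to 2.12 CPM.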

How the results depend on the processing

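Over 15 alternative fits per gene, the 9 genes gave 135 results, of which 127 kept their direction and their side of the threshold. Fcgr3 was called in 4 (0.58, 0.50, 0.71 and 0.66 on the log2 scale, given with its values above) and was reversed with library totals alone (−0.17), and Hcst lost its call in 3. No other of the 9 genes changed its call or its direction in these fits. Of 370 results for the 25 other named genes 369 kept both, the exception being Src with library totals alone. With the replicate block 6 of the 9 genes were higher and 3 lower, the sixth being Fcgr3, and among the other named genes the block changed no call. Over all genes, 2224 were higher and 2998 lower when a log2 fold change of at least 1 was also required, and 1988 higher and 8457 lower with library totals alone, against 4191 and 4686. Upper quartile scaling moved the median of all genes by −0.16 on the log2 scale. The differences in log2 ratio stayed at 2.70 (Fcer1g to Tyrobp), 0.44 (Hcst to Tyrobp), 1.68 (Fcgr4 to Fcgr2b) and −1.33 (Fcgr3 to Fcgr2b) with the replicate block, where exact sign flips cannot give a p under 0.125. Leaving out 1 library gave 2.58 to 2.77, 0.39 to 0.52, 1.39 to 1.90 and −1.46 to −1.17, each with an exact permutation p of 0.0571, the smallest that 3 against 4 can give. Depth limits Hcst most, with at most 120 counts in a library, and genes at the floor cannot be told from absent.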
